A study of Xenopus tropicalis with 20 samples.

Results

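Folliculin, its partners FNIP1 and FNIP2, and the sestrins SESN1 and SESN3 were followed through livers of Xenopus tropicalis, the western clawed frog, over 2 generations. The 5 genes flcn, fnip1, fnip2, sesn1 and sesn3 were taken by their names from the table of each library, in which 20372 named genes were listed. They had been put together with their levels in these libraries known, so their differences between groups are given below as a description. Where limma results of these 5 genes are given, they stand beside those of all genes and are not read as support. All 100 values (5 genes in 20 libraries) carried the mark of a sound estimate.

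The study asked which liver genes differ in descendants of frogs exposed to benzo[a]pyrene, a polycyclic aromatic hydrocarbon from combustion, together with triclosan, an antimicrobial agent. Liver mRNA of 20 mature females was sequenced as 75 bp reads, with 5 libraries in each of 4 groups. The F1 mixture and F2 mixture females descended from F0 founders that had been exposed to both compounds at 50 ng/L as tadpoles and until maturity. The F1 control and F2 control females came from the matching control generations. None of the F1 or F2 females of any group was exposed, and each library came from 15 mg of liver. The labels name neither strain nor age, nor the animals, clutches or sisters behind the replicates, so p-values measure the spread between these libraries. The series' design text says that control reads from an earlier deposit were used, so batch and group cannot be told apart.

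Folliculin works as a complex with FNIP1 or FNIP2 on the lysosome. When amino acids are plentiful it switches the GTPases RagC and RagD to the form that brings the transcription factors TFEB and TFE3 to the kinase complex mTORC1, which keeps them out of the nucleus; the complex also binds the energy sensor AMPK. Sestrins act from the other side of the same pathway. When leucine is scarce SESN1 and SESN2 hold GATOR2, and GATOR1 then shuts off RagA and RagB and with them mTORC1. Sestrin genes are induced by stress through p53, FOXO and ATF4, and in mammalian liver these proteins shape the response to fasting, fat storage and insulin action.

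The tables gave FPKM (fragments relative to transcript length and library size), and levels are given here as FPKM divided by a scaling factor per library. Taking the deposited limits as 2 Poisson SD on each side, the sound values of named genes implied 7895926 to 16705412 fragments per library. Group means ± SD (n = 5 each) were 15338224 ± 1344257 in F1 mixture and 10230766 ± 1541137 in F1 control. They were 12945446 ± 2042394 in F2 mixture and 12802709 ± 1315427 in F2 control. Values with an unsound mark or a lower limit of 0 are not in these sums. All 13 listed hepatocyte markers had a mean of 1 FPKM or more, against 0 of the 8 oocyte markers in the table. In bulk liver, fewer cells of a type and less RNA per cell cannot be told apart. The deposited limits of the 5 genes lay 2.67% to 22.9% (median 7.17%) away from the value, which covers counting error only. By limma's array weights 5 libraries stood apart with a weight under 0.6, namely F1 mixture 1 (0.447) and 8 (0.555), F1 control 3 (0.566), F2 mixture 2 (0.288) and F2 control 1 (0.533).

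By mean, the transcripts of the folliculin complex were most abundant in F1 control livers. The gene flcn (chromosome 9, 15783695 to 15791567, assembly UCB_Xtro_10.0) encodes folliculin, the GTPase-activating subunit. Its level was 9.88, 8.65, 3.27, 4.11 and 2.59 scaled FPKM in F1 mixture libraries 1, 4, 8, 9 and 13, against 17.9, 26.5, 11.3, 14.7 and 21.3 in F1 control libraries 1, 2, 3, 4 and 6. Every F1 mixture library lay below every F1 control library. The means were 5.70 ± 3.33 scaled FPKM in F1 mixture and 18.3 ± 5.90 in F1 control livers (SD, n = 5 each), and the log2 fold change was -1.62 ± 0.31 (SE). In F2 the level was 3.31, 7.97, 2.22, 3.05 and 5.39 scaled FPKM in mixture libraries 1 to 5, against 6.36, 7.39, 5.13, 5.35 and 6.0 in control libraries 1 to 5. These groups overlapped, with mixture library 2 above all 5 controls and mixture libraries 1, 3 and 4 below them. The F2 means were 4.39 ± 2.32 in mixture and 6.05 ± 0.90 in control livers, a log2 fold change of -0.48 ± 0.31.

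The gene fnip1 (chromosome 3, 35961967 to 36020965) encodes a subunit that holds folliculin on the lysosome and binds AMPK. Its level was 4.71, 6.77, 3.38, 3.32 and 2.42 scaled FPKM in F1 mixture libraries, against 12.4, 15.8, 3.36, 14.9 and 12.6 in F1 control libraries, in the same library order as for flcn. Apart from control library 3, all F1 controls lay above all F1 mixture libraries. That 1 library sat among the mixture values, and it also held the lowest flcn and fnip2 levels of its group. The means were 4.12 ± 1.69 in F1 mixture and 11.8 ± 4.96 in F1 control livers, with a log2 fold change of -1.24 ± 0.31. With any 1 library left out this value ran from -1.60, without F1 control 3, to -1.11. In F2 fnip1 stood at 3.41, 5.64, 2.49, 2.97 and 5.67 scaled FPKM in mixture libraries, against 4.52, 8.24, 6.34, 5.24 and 4.59 in control libraries, and the groups overlapped. The F2 log2 fold change was -0.45 ± 0.31.

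The gene fnip2 (chromosome 1, 52859870 to 52902428), the paralog of fnip1, was the member of the complex that stood lower in the mixture group by about the same amount in both generations. Its level was 8.86, 9.25, 10.7, 6.77 and 3.53 scaled FPKM in F1 mixture libraries, against 14.5, 25.8, 9.02, 14.9 and 21.1 in F1 control libraries. In F2 it was 2.95, 3.81, 3.78, 3.79 and 7.65 in mixture libraries, against 5.22, 13.8, 10.2, 8.08 and 14.7 in control libraries. In F1 control library 3 lay below mixture libraries 4 and 8, in F2 control library 1 lay below mixture library 5, and no other control library lay below a mixture library of its generation. The means were 7.82 ± 2.77 in F1 mixture and 17.1 ± 6.49 in F1 control livers, and 4.39 ± 1.85 in F2 mixture and 10.4 ± 3.95 in F2 control livers. The log2 fold change was -1.03 ± 0.31 in F1 and -1.06 ± 0.31 in F2, and the difference between these was -0.03 ± 0.44 (SE). For flcn the F2 effect minus the F1 effect was 1.14 ± 0.44, and for fnip1 it was 0.79 ± 0.44. Whether fnip2 differs from its partners in this was not tested.

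Among the transcripts of the 3 subunits the balance also varied. The level of flcn relative to the sum of fnip1 and fnip2 was 0.468 ± 0.182 in F1 mixture and 0.667 ± 0.153 in F1 control livers (SD, n = 5 each). It was 0.515 ± 0.194 in F2 mixture and 0.402 ± 0.145 in F2 control livers. The ranges of these ratios overlapped in both generations. The ratio of fnip2 to fnip1 was 1.98 ± 0.717 in F1 mixture and 1.63 ± 0.658 in F1 control livers, and 1.14 ± 0.352 in F2 mixture and 1.84 ± 0.789 in F2 control livers. In F2 mixture libraries 1 and 2 fnip2 was the less abundant of the pair, at 0.866 and 0.675 times fnip1.

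**Figure D1:**
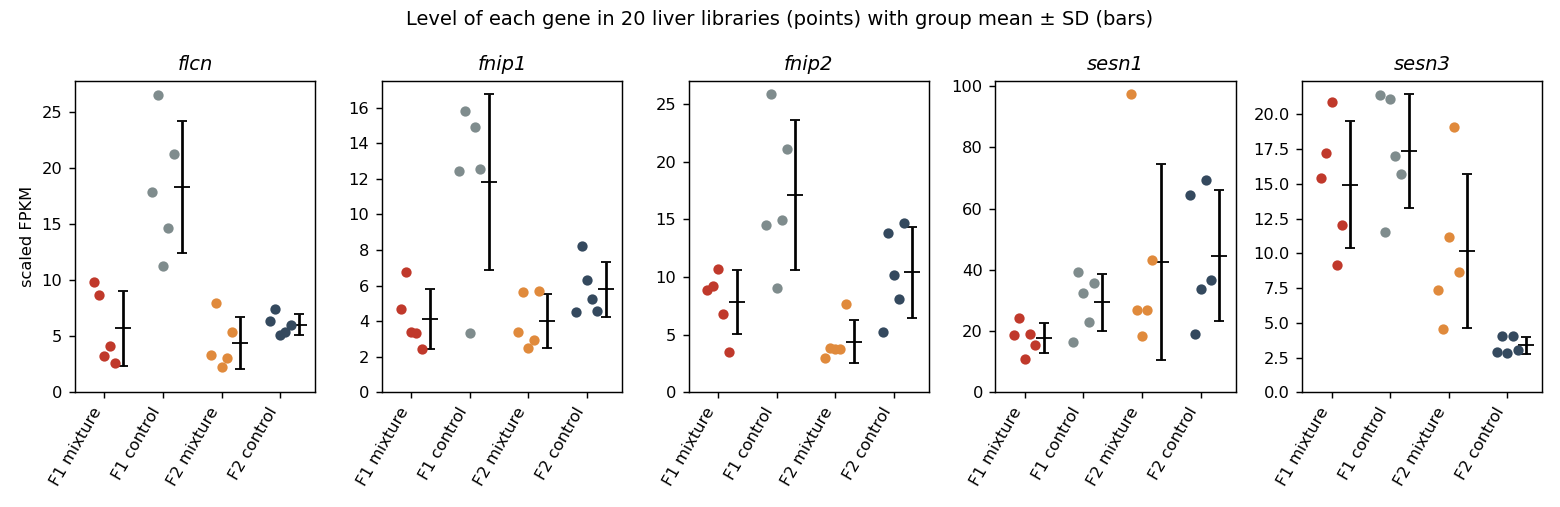
Levels in scaled FPKM (vertical axes from 0, a different range per gene) of flcn, fnip1, fnip2, sesn1 and sesn3 in the F1 mixture, F1 control, F2 mixture and F2 control groups; each point is 1 library and each bar the group mean ± SD (n = 5). For flcn the F1 controls (mean 18.3) stood above all other libraries, and for sesn3 the F2 controls (mean 3.38) stood below all other libraries.

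Of the sestrins, sesn1 (chromosome 5, 78109047 to 78121182), whose mammalian product is a stress-inducible leucine sensor, was the most abundant by mean in every group. Its level was 18.6, 24.3, 11, 18.9 and 15.4 scaled FPKM in F1 mixture libraries, against 16.4, 39.3, 32.4, 23.1 and 35.6 in F1 control libraries. The groups overlapped, since control library 1 lay within the mixture range and control library 4 below mixture library 4. In F2 the spread was wider, at 97.3, 26.8, 18.4, 26.8 and 43.3 in mixture libraries, against 64.4, 19.0, 33.8, 69.4 and 36.6 in control libraries. The means were 17.6 ± 4.91 in F1 mixture and 29.4 ± 9.40 in F1 control livers, and 42.5 ± 31.9 in F2 mixture and 44.6 ± 21.4 in F2 control livers. The log2 fold change was -0.68 ± 0.39 in F1 and -0.18 ± 0.39 in F2, where it ran from -0.53 without mixture library 1 to 0.05 without mixture library 3.

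The gene sesn3 (chromosome 2, 164574637 to 164629337), a FOXO target in mammals, stood lowest in F2 control livers. Its level was 15.4, 17.2, 20.9, 9.16 and 12.1 scaled FPKM in F1 mixture libraries, against 21.4, 11.5, 21.1, 17.0 and 15.7 in F1 control libraries, and these groups overlapped widely. In F2 it was 7.33, 4.53, 11.2, 19.1 and 8.63 in mixture libraries, against 2.91, 4.03, 2.84, 4.05 and 3.06 in control libraries. Every F2 mixture library lay above every F2 control library, although mixture library 2 exceeded the highest control by little. The F2 means were 10.2 ± 5.55 in mixture and 3.38 ± 0.61 in control livers, a log2 fold change of 1.23 ± 0.27, against 14.9 ± 4.54 in mixture and 17.3 ± 4.11 in control livers in F1, a log2 fold change of -0.22 ± 0.27. The effect in F2 minus that in F1 was 1.45 ± 0.39.

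The gene of the other sestrin, sesn2 (chromosome 2, 78246314 to 78263504), which encodes a leucine sensor and an ATF4 and p53 target in mammals, was no member and was tested. Its level was 7.83, 5.15, 5.36, 5.28 and 4.94 scaled FPKM in F1 mixture libraries, against 4.86, 3.82, 5.39, 5.49 and 3.09 in F1 control libraries. In F2 it was 10.9, 4.08, 8.83, 15.2 and 4.71 in mixture libraries, against 9.46, 3.21, 4.20, 7.11 and 2.85 in control libraries. Both pairs of groups overlapped. The log2 fold change was 0.29 ± 0.30 in F1 (limma, adjusted p = 0.694) and 0.59 ± 0.30 in F2 (adjusted p = 0.155). In F2 the value passed with the replicate block (adjusted p = 0.0400), with array weights (adjusted p = 0.0342) and without F2 mixture 2 (adjusted p = 0.0467).

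Within the summed sestrin FPKM the share of each gene varied with generation and group. The share of sesn3 was 38.9% ± 10.5 in F1 mixture and 34.6% ± 10.8 in F1 control livers, and 18.9% ± 10.8 in F2 mixture and 7.66% ± 4.51 in F2 control livers (SD, n = 5 each). The share of sesn1 was 46.1% ± 10.4 in F1 mixture and 56.3% ± 13 in F1 control livers, and 65.6% ± 18.4 in F2 mixture and 82.3% ± 5.68 in F2 control livers. The F2 control libraries resembled each other, with sesn1 at 72.5% to 86.1%. The F2 mixture libraries fell apart, with sesn1 at 84.2%, 75.7% and 76.4% in libraries 1, 2 and 5 and at 48.0% and 43.9% in libraries 3 and 4.

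**Figure D2:**
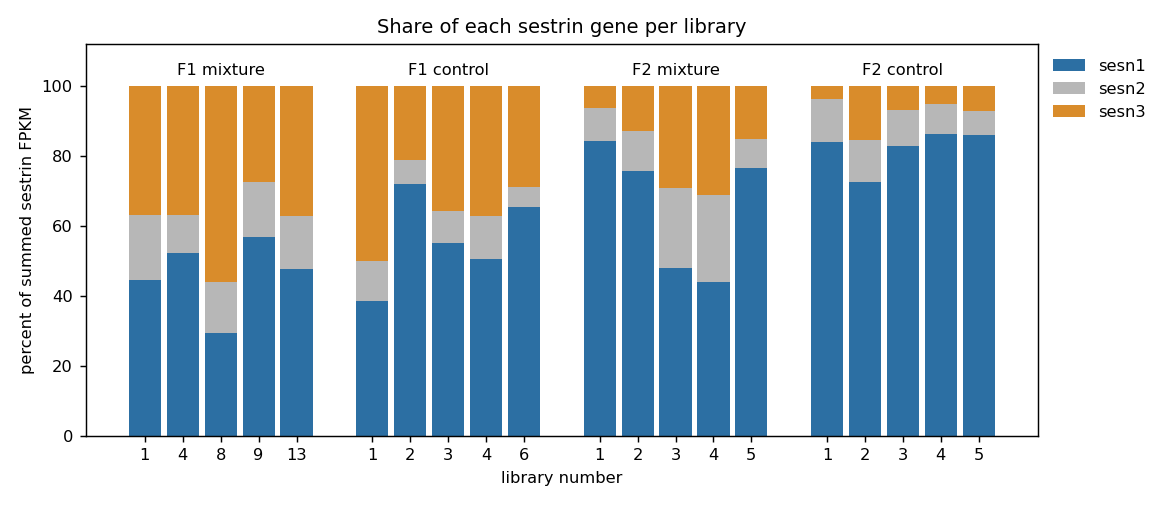
Share of sesn1, sesn2 and sesn3 in the summed sestrin FPKM (vertical axis, percent) in each library, in the order F1 mixture, F1 control, F2 mixture and F2 control. The sesn3 share averaged 18.9% in F2 mixture and 7.66% in F2 control livers, and 38.9% in F1 mixture and 34.6% in F1 control livers.

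Levels also differed between the generations, in control as well as mixture livers. In F2 control against F1 control livers the log2 fold change was -1.41 ± 0.31 for flcn, -0.81 ± 0.31 for fnip1, -0.66 ± 0.31 for fnip2, 0.51 ± 0.39 for sesn1 and -2.05 ± 0.27 for sesn3. In F2 mixture against F1 mixture livers it was -0.27 ± 0.31 for flcn, -0.02 ± 0.31 for fnip1, -0.69 ± 0.31 for fnip2, 1.02 ± 0.39 for sesn1 and -0.60 ± 0.27 for sesn3. These comparisons share libraries with those of mixture against control. In order of mean level, flcn, fnip1 and fnip2 each ran from F1 control through F2 control and F1 mixture to F2 mixture. Only the step between the F1 controls and the F2 controls in flcn was free of overlap. For sesn3 the order was F1 control, F1 mixture, F2 mixture, F2 control, with overlap at each step but the last. For sesn1 it was F2 control, F2 mixture, F1 control, F1 mixture, and no neighbouring groups were separate.

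The members' counts have to be read against all genes. In F1, 0 of the 5 passed limma at an adjusted p under 0.05, where 0% of the 10228 tested genes passed and 1306 (12.8%) had an unadjusted p under 0.05. The F1 count was 1 without F1 mixture 1 (flcn, beside 6 of all genes), 2 without F1 control 3 (flcn and fnip1, beside 21), and 3 with array weights (flcn, fnip1 and fnip2, beside 1129). In F2, fnip2 passed as lower and sesn3 as higher, where 25.7% of all tested genes passed, 11.3% as higher and 14.5% as lower. For the F2 effect minus the F1 effect 1 member passed, sesn3, beside 20.1% of all genes. With the replicate block, which in F1 rests on 2 pairs, sesn3 did not pass (1.44, limma adjusted p = 0.110), and 257 of all genes did. In F2 control against F1 control 3 passed as lower (flcn, fnip1 and sesn3), beside 28.5% of all genes passing as lower and 55.9% in either direction. In F2 mixture against F1 mixture 0 passed, beside 14.2% of all genes. Groups without overlap were as rare as 0.909% of genes for lower values in F1, where flcn was the member, and were 7.97% for higher values in F2, where sesn3 was the member. In F2 control against F1 control flcn and sesn3 were lower without overlap, as were 21.5% of genes. Since the members were chosen on these levels, nothing is read from these counts.

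The authors' deposited table, made with another test, gave group means and fold changes of its own. For F1 the authors' deposited table marked flcn (log2 fold change -1.53, q = 0.00495), fnip1 (-1.59, q = 0.00495) and fnip2 (-1.22, q = 0.0303) as significant, beside 2.43% of the genes it tested. In that F1 table sesn1 (-0.78, q = 0.159) and sesn3 (-0.08, q = 0.967) were not marked. For F2 the authors' deposited table marked fnip2 (-0.92, q = 0.0315) and sesn3 (1.69, q = 0.000955), beside 20.3% of the genes it tested. It gave flcn -0.56 (q = 0.177), fnip1 -0.23 (q = 0.641) and sesn1 -0.07 (q = 0.923) in F2. The sign in the authors' deposited table was that of the values above for each of the 5 genes in both generations, and both rest on the same libraries. Since the members were chosen with these levels known, neither the marks nor the shared signs are read as support.

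**Figure D3:**
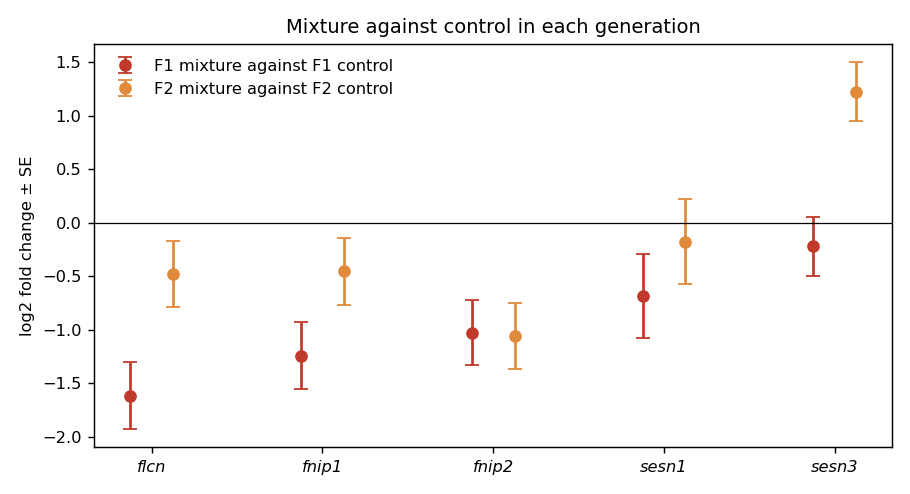
Log2 fold change ± SE (vertical axis) of flcn, fnip1, fnip2, sesn1 and sesn3 in F1 mixture against F1 control and in F2 mixture against F2 control. The values of fnip2 were alike in both generations (-1.03 and -1.06), while sesn3 was at -0.22 in F1 and 1.23 in F2.

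Some properties of the libraries stood beside these levels. A relative transcript length was implied for each gene from its deposited values and limits, and no length was read directly. Level and implied length thus share the same values, so a slope between them is not one on measured length. In log2 this slope was -0.779 ± 0.084 in F1 mixture and -0.710 ± 0.098 in F1 control libraries (SD, n = 5 each). It was -0.807 ± 0.044 in F2 mixture and -0.787 ± 0.093 in F2 control libraries. By implied length fnip1 and fnip2 were long, at percentiles 94.9 and 89.2 of the tested genes. With the length trend removed the F1 log2 fold change was -1.60 for flcn, -1.18 for fnip1 and -0.96 for fnip2, and that of sesn3 in F2 was 1.27. The summed level of the 8 pancreas markers in the table ran from 39.3 to 304 scaled FPKM in F2 mixture and from 16 to 39.1 in F2 control livers. In F1 it ran from 106 to 1834 in mixture and from 129 to 415 in control livers. Only 1 marker, amy2a, had a mean of 1 or more, with medians of 128 in F2 mixture and 30.6 in F2 control livers. The sum is thus nearly that of amy2a, and ctrb1, pnlip and ptf1a were at 0 in every library. The medians of cpa1 were 0.064 in F2 mixture and 0.062 in F2 control livers, and those of pdia2 0.041 and 0.058. For the 10 endothelial markers the sum was 35.2 to 69.5 in F2 mixture and 34.1 to 54.9 in F2 control livers, and 81.0 to 124.0 in F1 mixture and 85.2 to 124.4 in F1 control livers, and 7 of them had a mean of 1 or more. Their mean log2 level was 1.88 ± 0.138 in F2 mixture and 2.01 ± 0.183 in F2 control livers (SD, n = 5 each), the other way from the sum. Within the sum the median of stab1 was 22.6 in F2 mixture and 11.5 in F2 control livers, and that of stab2 was 6.79 in F2 mixture and 11.7 in F2 control livers. For the 6 bile duct markers in the table, 5 of them with a mean of 1 or more, the sum was 257.7 to 678 in F2 mixture and 273.5 to 557 in F2 control livers, and the mean log2 level 3.01 ± 0.423 in F2 mixture and 3.48 ± 0.309 in F2 control livers. For the 13 hepatocyte markers the mean log2 level was 8.83 ± 0.248 in F1 mixture and 8.39 ± 0.377 in F1 control livers. In F2 it was 9.09 ± 0.744 in mixture and 9.30 ± 0.254 in control livers. That of the 13 erythrocyte markers in the table was 6.76 ± 0.769 in F1 mixture and 6.55 ± 0.404 in F1 control livers. In F2 it was 7.30 ± 0.940 in mixture and 7.75 ± 0.422 in control livers. Unsound values were left out of these means. The hepatocyte marker alb had no sound value above 0 in 40% of libraries, and the erythrocyte marker hba1 in 15%. Both were abundant where measured, so the mean log2 levels of these 2 lists do not rest on the same markers in every library. They are not read as differences between groups. The part of these cell types in the levels of the 5 genes was not tested.

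Whether members moved together was asked within groups, after subtracting each group's mean, which the choice of members did not use. Libraries that were high in flcn for their group were also high in fnip1 (Pearson's r = 0.74 over 20 libraries, permutation p = 0.00019, adjusted p = 0.0019 over 10 pairs of members; Spearman's rho = 0.77, adjusted p = 0.0020). The relation was positive in all 4 groups, with r = 0.89 in F1 mixture, 0.76 in F1 control, 0.95 in F2 mixture and 0.40 in F2 control libraries. Without the 2 libraries farthest from the median of flcn, F1 mixture 1 and F2 mixture 2, r was 0.78 (permutation, adjusted p = 0.0071). Of all genes, 0.726% were at least as correlated with flcn, and 0.334% with fnip1. With the length trend removed r was 0.74 (permutation, adjusted p = 0.0032). These permutations moved libraries freely within groups, while deviations of same-numbered F2 libraries had correlations of 0.104 to 0.385. With F2 libraries of the same number permuted together, permutation adjusted p was 0.0022 for flcn and fnip1.

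The partners fnip1 and fnip2 also varied together (r = 0.65, permutation adjusted p = 0.0194; rho = 0.65, adjusted p = 0.0169), with positive values in all 4 groups. With F2 libraries of the same number permuted together, adjusted p was 0.0214. With any 1 library left out r lay between 0.55 and 0.72, and the threshold was missed without F1 control 3 (r = 0.55, permutation adjusted p = 0.149), F1 mixture 13 (r = 0.61, 0.0633) or F2 mixture 5 (r = 0.62, 0.0508). Without the 2 farthest libraries, F1 control 3 and F1 mixture 4, r was 0.55 (permutation, adjusted p = 0.110). The length slope of the libraries went with both genes within groups (r = 0.52 for fnip1 and 0.73 for fnip2, n = 20), and with that trend removed r between them was 0.54 (permutation, adjusted p = 0.101). For flcn and fnip2 r was 0.52 (permutation, adjusted p = 0.0834; rho = 0.51, adjusted p = 0.0968), and the threshold was missed. With F2 libraries of the same number permuted together, permutation adjusted p was 0.127 for this pair. The value of r was 0.63 without F1 mixture 8 (adjusted p = 0.0156) or 0.61 without F2 mixture 2 (adjusted p = 0.0257).

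No pair with a sestrin passed. The values of r ran from -0.35 for flcn and sesn3 to 0.17 for flcn and sesn1, with permutation adjusted p between 0.520 and 0.940 over these 7 pairs. Between the sestrins r was -0.31 (permutation, adjusted p = 0.520), and negative in all 4 groups. With 5 libraries per group, modest relations could be missed.

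**Figure D4:**
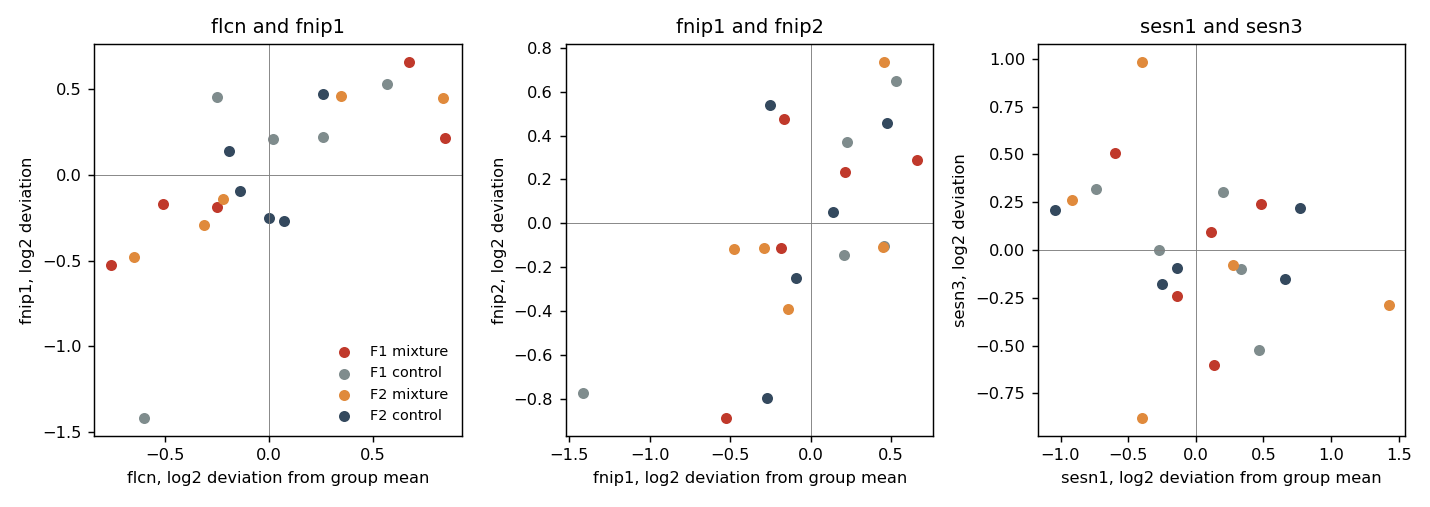
Deviation of each library from its group mean, in log2(scaled FPKM + 1), for flcn and fnip1, fnip1 and fnip2, and sesn1 and sesn3 (n = 20 libraries, 4 groups in colours). The points of flcn and fnip1 rise together (r = 0.74), while those of sesn1 and sesn3 do not (r = -0.31).

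Across all 20 libraries with group means kept, the members' closest companions differed. As a description without a test, the named genes most like flcn were chuk, an I-kappa-B kinase (r = 0.94), slc8b1, a mitochondrial sodium-calcium exchanger (0.89), and rpap2, an RNA polymerase II phosphatase (0.86). Those most like fnip1 were again chuk (0.90), then plekhm1, a lysosomal adaptor (0.89), and atxn3, a deubiquitinase (0.87). With group means removed chuk was at 0.79 with flcn and 0.78 with fnip1, and plekhm1 at 0.84 with fnip1. The levels of chuk were 1.89 ± 0.468 scaled FPKM in F1 mixture and 3.33 ± 0.664 in F1 control livers, and 1.72 ± 0.246 in F2 mixture and 2.10 ± 0.284 in F2 control livers. Those most like fnip2 were ano10l, trak2, an adaptor for mitochondrial transport, and pth2r, a parathyroid hormone receptor, each at 0.90.

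For sesn1 the closest were pde4b, a cAMP phosphodiesterase (r = 0.85), btg2, an antiproliferative p53 target (0.85), and nr4a2, an immediate-early nuclear receptor (0.84), with 1 gene that carries only a LOC identifier closer to sesn1. For sesn3 they were brd3, a bromodomain protein, senp3, a SUMO protease, and rab5c, an endosomal GTPase, each at 0.94. Their levels had the same low point in F2 controls, with brd3 at 13.1 ± 6.62 scaled FPKM in F2 mixture and 1.86 ± 0.536 in F2 control livers. Between members r over the 20 libraries was 0.88 for flcn and fnip1, 0.80 for fnip1 and fnip2, 0.78 for flcn and fnip2 and -0.50 for sesn1 and sesn3. The libraries share depth, composition and group differences in these values.

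The pathway around the members was described with 16 lists of 204 genes, of which 153 could be tested. In F1, 0 of the 153 passed, 76 had a positive log2 fold change and the median was 0.00, beside a median of -0.02 over all tested genes. With array weights, which gave 1129 calls among all genes, 5 rose and 7 fell in F1. The authors' deposited table, made with another test on the same libraries, marked some listed genes in F1, beside 2.43% of the genes it tested. Among them were ddit4 (log2 fold change -1.64, q = 0.00495), btg2 (-1.48, q = 0.00495) and prr5l (1.15, q = 0.0485). In limma their F1 adjusted p was 0.505, 0.491 and 0.348. In F2, 13 rose and 23 fell, and the median was -0.13, beside -0.04 over all tested genes. That is a call in 36 of 153, near the background of 25.7%. The authors' deposited table marked only some of these genes in F2, such as ctsd (log2 fold change -1.46, q = 0.000955) and wdr59 (1.24, q = 0.000955). It did not mark others, such as rragc (-0.60, q = 0.127), lamp1 (-0.75, q = 0.0979) and nfe2l2 (-0.35, q = 0.403). Rose and fell are meant against the F2 controls, and these differed from the F1 controls too. In F2 control against F1 control livers 56 of the 153 rose (36.6%) and 26 fell (17.0%), while 28.5% of all tested genes fell. In either direction 53.6% were called, beside 55.9% of all tested genes. In F2 mixture against F1 mixture livers 33 rose and 3 fell (23.5% called, beside 14.2% of all tested genes in either direction). The share of all genes by direction is not given for that comparison, and the split was not tested.

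Upstream, where the sestrins act, 0 of 3 GATOR1 subunits and 1 of 5 GATOR2 subunits passed in F2, beside 25.7% of all tested genes. The GATOR2 subunit wdr59 was at 16.1 ± 1.24 scaled FPKM in F2 mixture and 7.29 ± 1.73 in F2 control livers (log2 fold change 1.07 ± 0.22, limma adjusted p = 0.00192). Of 6 other nutrient sensors 1 rose, castor2, an arginine sensor subunit, at 16.9 ± 5.08 in F2 mixture and 5.94 ± 0.99 in F2 control livers (1.34 ± 0.22, adjusted p = 0.000346). Its paralog castor1 was at -0.17 ± 0.21 (adjusted p = 0.586).

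At the lysosome, where folliculin acts on RagC and RagD, 0 of 6 Rag and Ragulator genes rose and 3 fell in F2. Of all tested genes 11.3% rose and 14.5% fell, and no test was made of this list of 6. The folliculin substrate rragc was at 2.71 ± 0.947 scaled FPKM in F2 mixture and 5.16 ± 1.38 in F2 control livers (-0.74 ± 0.17, limma adjusted p = 0.00384). The Ragulator subunit lamtor2 was at 11 ± 3.37 in F2 mixture and 21.4 ± 3.10 in F2 control livers (-0.94 ± 0.23, adjusted p = 0.00559), and lamtor5 at 12 ± 3.87 in F2 mixture and 28.5 ± 8.42 in F2 control livers (-1.20 ± 0.26, adjusted p = 0.00305). The other folliculin substrate, rragd, had a mean of 0.0444 FPKM and was below the filter. In F1 rragc was at -0.13 ± 0.17 (adjusted p = 0.767).

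Of the transcription factors that folliculin holds back, tfe3 alone passed the filter, at 7.61 ± 2.79 scaled FPKM in F2 mixture and 5.53 ± 0.565 in F2 control livers (0.35 ± 0.25, limma adjusted p = 0.32). The means of tfeb, mitf and tfec were 0.716, 0.263 and 0.202 FPKM. Among 25 tested genes listed as MiT/TFE targets, lysosomal and autophagy genes, 0 rose and 8 fell in F2, beside 11.3% and 14.5% of all tested genes, and 0 of 25 passed in F1. No test was made of the list itself. The protease gene ctsd was at 17.6 ± 5.16 in F2 mixture and 49.4 ± 10.2 in F2 control livers (-1.46 ± 0.21, adjusted p = 0.000131), and lamp1, a lysosomal membrane protein, at 48.2 ± 8.18 in F2 mixture and 88.6 ± 14.3 in F2 control livers (-0.87 ± 0.23, adjusted p = 0.00959). The proton pump subunit atp6v0d1 was at -0.59 ± 0.13 (adjusted p = 0.00326), and the remaining ones were rragc, lamp2, ctsa, atp6v1h and vps18. In F1 livers ctsd was at 14.5 ± 4.36 in mixture and 14.0 ± 1.51 in control, and lamp1 at 39.3 ± 13.5 in mixture and 36.7 ± 5.39 in control. F2 control against F1 control livers gave 1.73 ± 0.21 for ctsd (limma adjusted p = 4.19e-06) and 1.25 ± 0.23 for lamp1 (0.000166). F2 mixture against F1 mixture livers gave 0.26 ± 0.21 for ctsd (0.417) and 0.35 ± 0.23 for lamp1 (0.310). For ctsd and atp6v0d1 the F2 effect also differed from the F1 effect (by -1.47 ± 0.30, adjusted p = 0.00341, and -0.67 ± 0.19, adjusted p = 0.0172), and for lamp1 that test gave adjusted p = 0.0559. With the replicate block neither passed, at -1.59 (adjusted p = 0.0593) for ctsd and -0.56 (0.213) for atp6v0d1.

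**Figure D5:**
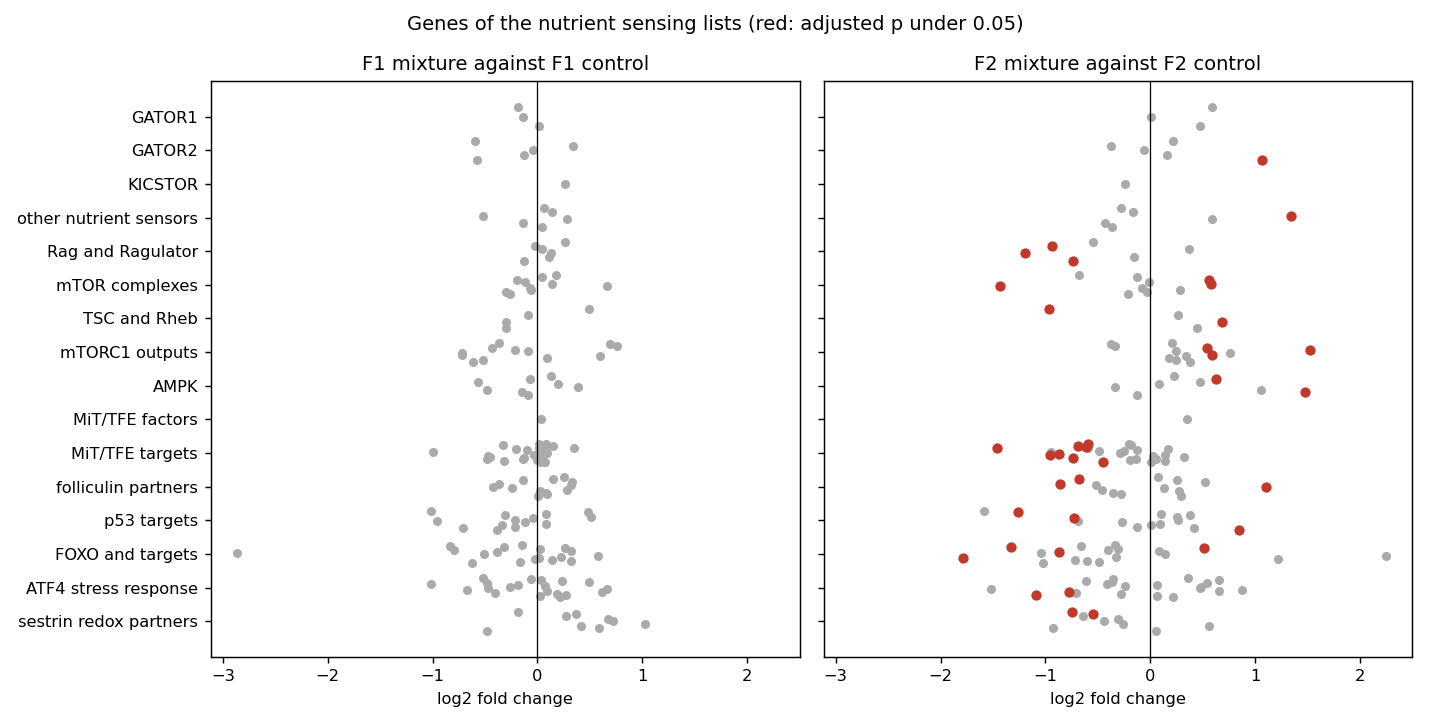
Log2 fold change (horizontal axes) of the tested genes of 16 nutrient sensing lists, 1 point per gene, in F1 mixture against F1 control (left) and F2 mixture against F2 control (right), with red points at an adjusted p under 0.05. In F1 0 of 153 genes passed, and in F2 13 rose and 23 fell, while 11.3% of all tested genes rose and 14.5% fell.

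Among the kinase complexes 2 of 10 genes rose and 1 fell in F2, beside 11.3% and 14.5% of all tested genes. The gene mtor itself was at -0.01 ± 0.15 (limma adjusted p = 0.963) and rptor at 0.29 ± 0.16 (adjusted p = 0.198). The mTORC2 regulator prr5l was at 1.23 ± 0.672 scaled FPKM in F2 mixture and 5.21 ± 2.71 in F2 control livers (-1.43 ± 0.26, adjusted p = 0.000734). Its relative prr5 rose by 0.58 ± 0.19 (adjusted p = 0.0299) and the shared subunit mlst8 by 0.56 ± 0.16 (adjusted p = 0.0167). The prr5 call ended without any of 6 F2 libraries, mixture 1, 3 or 4 or control 2, 3 or 5 (adjusted p between 0.0513 and 0.0823), and that of mlst8 on unscaled values (0.153). In the TSC and Rheb list of 4, tsc1 rose (0.68 ± 0.19, adjusted p = 0.0149), rheb, the activator of mTORC1, fell (-0.96 ± 0.33, adjusted p = 0.0397), and tsc2 was at 0.45 ± 0.20 (adjusted p = 0.0996), passing with the length trend removed (0.50, adjusted p = 0.0294). The rheb call ended without mixture 3 or 4 or any 1 of the 5 control libraries of F2 (adjusted p between 0.0523 and 0.131), and that of tsc1 on unscaled values (0.0576).

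Of 12 mTORC1 outputs 3 rose and 0 fell in F2, beside 11.3% and 14.5% of all tested genes. The insulin receptor adaptor grb10 was at 20.4 ± 14.4 scaled FPKM in F2 mixture and 4.85 ± 0.441 in F2 control livers (1.53 ± 0.38, limma adjusted p = 0.00688). The translation inhibitor pdcd4 rose by 0.59 ± 0.18 (adjusted p = 0.0206), a call that ended with the replicate block (0.0502) and without F2 mixture 1 (0.0508) or 4 (0.0594) or F2 control 2 (0.0504) or 5 (0.0548). The eIF4E-binding gene eif4ebp2 rose by 0.54 ± 0.20 (adjusted p = 0.0469), a call that ended with the replicate block (0.138) and without any of 12 libraries, F1 mixture 8, 9 or 13, F1 control 2 or 6, F2 mixture 1, 3 or 4 or F2 control 2, 3, 4 or 5 (between 0.0507 and 0.153). Of 8 genes of AMPK, the kinase that folliculin binds, 2 rose and 0 fell, again beside 11.3% and 14.5% of all tested genes. Those that rose were stk11, encoding the AMPK activator LKB1, at 12.9 ± 4.27 in F2 mixture and 3.87 ± 0.805 in F2 control livers (1.48 ± 0.24, adjusted p = 0.000343), and the LKB1 partner cab39l (0.63 ± 0.16, adjusted p = 0.00744). The level of cab39l was 12.2 ± 2.46 in F2 mixture and 7.48 ± 0.73 in F2 control livers. In F1 it was 12.5 ± 1.99 in mixture and 13.2 ± 2.25 in control livers. The catalytic subunit prkaa1 was at 0.48 ± 0.18 (adjusted p = 0.0559), passing without F2 mixture 2 (0.0458) or 5 (0.0416), with the length trend removed (0.0256) and at the filter of 5 FPKM (0.0482), and prkaa2 was below the filter at a mean of 0.242 FPKM.

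Among 13 folliculin partners 1 rose and 2 fell in F2, beside 11.3% and 14.5% of all tested genes. The gene c9orf72, whose product forms a complex related to folliculin and FNIP, was at 3.16 ± 0.744 scaled FPKM in F2 mixture and 5.63 ± 0.716 in F2 control livers (-0.68 ± 0.15, limma adjusted p = 0.00263). In F1 c9orf72 was at 3.69 ± 0.587 in mixture and 3.26 ± 0.722 in control livers. The autophagy gene gabarapl1 fell by 0.86 ± 0.27 on the log2 scale (adjusted p = 0.0261), a call that ended without F2 mixture 3 or 4 or F2 control 1 or 3 (between 0.0526 and 0.0839). The chaperone gene hsp90aa1.1, whose product binds FNIP1 and folliculin in mammals, rose by 1.1 ± 0.35 (adjusted p = 0.0269), which ended without F2 mixture 1 or 4 or F2 control 2 or 5 (between 0.0513 and 0.0802).

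The next 3 lists hold mostly targets of the factors that induce sestrin genes. In F2, 1 of 14 p53 targets rose and 2 fell. Of 18 FOXO genes and their targets 1 rose and 3 fell, and of 20 genes of the ATF4 stress response 0 rose and 2 fell. Those are 21.4%, 22.2% and 10% called, beside 25.7% of all tested genes. The listed target ccng1, a cyclin, was at 66.3 ± 31.6 scaled FPKM in F2 mixture and 147 ± 21.9 in F2 control livers (-1.26 ± 0.32, limma adjusted p = 0.00671), and mdm2, which encodes the ligase for p53, at -0.72 ± 0.18 (adjusted p = 0.00746). The p53 target zmat3 rose by 0.85 ± 0.26 (adjusted p = 0.0210), a call that ended without F2 mixture 4 (0.0548) and on unscaled values (0.0846).

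For the forkhead factors, foxo1 was at 16.9 ± 11.8 scaled FPKM in F2 mixture and 15.0 ± 7.71 in F2 control livers (0.08 ± 0.35, limma adjusted p = 0.887), and the value ran from -0.24 without F2 mixture 1 to 0.36 without F2 mixture 2. The gene foxo3 fell by 0.87 ± 0.27 on the log2 scale (adjusted p = 0.0238), a call that ended without F2 mixture 4 (0.0760) or 5 (0.0721) or F2 control 3 (0.0583) or 4 (0.0520). Their listed target klf15, a fasting-induced transcription factor, was at 1.87 ± 2.88 in F2 mixture and 6.99 ± 3.49 in F2 control livers. Its F2 log2 fold change was -1.79 ± 0.36 (limma adjusted p = 0.00175). In F1 klf15 was near the floor, at 0.290 ± 0.164 in mixture and 0.286 ± 0.226 in control livers. The listed target ccng2, a cyclin, was at 1.58 ± 0.989 in F2 mixture and 5.15 ± 0.723 in F2 control livers. Its F2 log2 fold change was -1.32 ± 0.22 (limma adjusted p = 0.000339). The cell cycle inhibitor cdkn1b rose by 0.51 ± 0.18 (adjusted p = 0.0443), a call that ended without any of 12 libraries, F1 control 1, 2 or 4, F2 mixture 1, 2, 4 or 5 or any 1 F2 control (between 0.0501 and 0.109). The insulin receptor substrate irs2 (-0.32 ± 0.20, adjusted p = 0.243) and igfbp1, a growth factor binding protein (2.25 ± 0.94, adjusted p = 0.0848), did not pass, though igfbp1 did with the replicate block (0.0467) and without F2 mixture 2 (0.00839).

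In the ATF4 list atf4 was at 414 ± 126 scaled FPKM in F2 mixture and 257 ± 59.3 in F2 control livers (0.66 ± 0.24, limma adjusted p = 0.0504), and passed without F1 control 3 (0.0444), F2 mixture 2 (0.0101) or F2 control 1 (0.0322) and under 6 other settings, among them with the length trend removed (0.0194). The listed target ddit4, an mTORC1 inhibitor, was at -0.41 ± 0.65 (adjusted p = 0.672), and ran from -1.03 without F2 mixture 1 to 0.13 without F2 mixture 2. The phosphatase subunit ppp1r15b (-0.77 ± 0.22, adjusted p = 0.0141) and slc3a2, a subunit of amino acid transporters (-1.09 ± 0.32, adjusted p = 0.0174), fell, and the slc3a2 call ended without F2 mixture 4 (0.0533) or F2 control 1 (0.0516). Of 9 redox partners of the sestrins 0 rose and 2 fell, beside 11.3% and 14.5% of all tested genes. Those that fell were nfe2l2, encoding NRF2 (-0.54 ± 0.16, adjusted p = 0.0197), and keap1, its inhibitor (-0.74 ± 0.25, adjusted p = 0.0345). The nfe2l2 call ended without F2 mixture 5 (0.0604), and the keap1 call with the replicate block (0.0666) and without F2 mixture 1, 3 or 4 or F2 control 1, 2 or 4 (between 0.0566 and 0.108).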

How the data were processed

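Liver mRNA of 20 females was sequenced in 4 groups of 5 libraries, grouped by the sample labels. Per the submitters' processing notes, Cufflinks 0.0.7 after HISAT2 and Trimmomatic 0.32.1 made the FPKM values and limits that the authors deposited for each gene. They also deposited Cuffdiff 0.0.7 tables with mean FPKM, a log2 fold change, a test score, p-values and q-values, per the file headers; these are quoted only as the authors' deposited table. For the genome build, the sources used here name none. Of 20372 named genes 20164 had the start and end of the UCB_Xtro_10.0 gene table, so positions are stated for that assembly. No other gene overlapped any member. Lines without a gene name, 70 per table, held at most 0.00856% of the FPKM and were left out. The file names of F1 mixture libraries 9 and 13 carried each other's number, and the sample under which each was deposited was used.

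Values with an unsound mark were set to missing. FPKM was divided by the median ratio over 6971 genes (factors 0.717 to 1.26), and log2(value + 1) was used, which understates changes of low genes. Genes of mean FPKM at or above 1 with at least 3 sound values per group, 10228 in all, were tested with limma 3.58.1 in R 4.3.3, in 1 model of 4 group means with a variance trend, two-sided, with Benjamini-Hochberg adjustment over all genes and a threshold of 0.05. Python 3.11.15 with pandas 2.3.3 and scipy 1.17.1 made the other values. Correlations used 100000 two-sided permutations within groups, adjusted over 10 pairs. Both steps were tested on simulated data. Depth and relative transcript length were implied from the deposited values and limits, which hold no counts. Every length slope and length correction here uses that implied length.

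The members, the lists and the tests were chosen with earlier results of these data known. Named were the members, sesn2, 17 regulators, up to 4 called genes per list by smallest p, and the 3 genes most like each member; 2 listed genes are not reported here and were left out of the list counts. In F2, deviations of libraries with the same number in the labels had correlations of 0.104 to 0.385 in 5 pairs. For mixture 1, 2 and 5 the control of the same number was the closest. For mixture 3 it was control 5, and for mixture 4 it was control 3. The replicate block was taken as pairing in F2, though these values do not settle whether the numbers mark pairs. F1 mixture and control share the numbers 1 and 4 only (-0.017 and -0.187) and were not paired. Alternatives were another pseudocount, other filters and scalings, array weights, each generation alone, the block and each library left out. Added after seeing the data were a length correction, leaving out 5 libraries of low weight and permuting same-numbered F2 libraries together.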

Additional observations from a re-analysis of the deposited data

Results flagged for a closer look

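In groups of 5, a library stood apart from its group in 3 of 24 gene and group combinations examined by Dixon's ratio, where chance gives about 1 in 20. These were fnip1 in F1 control, with library 3 lowest at 3.36 scaled FPKM, fnip2 in F2 mixture, with library 5 highest at 7.65, and sesn2 in F1 mixture, with library 1 highest at 7.83.

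For 25 of 49 named genes the F2 effect differed from the F1 effect (limma, interaction, adjusted p under 0.05). Most of the 49 were chosen as called in F2, where 24 of the 25 passed, so this count is favoured by the choice and is not comparable with the share of all genes. With the replicate block, which in F1 rests on 2 pairs, 2 of the 25 passed, hsp90aa1.1 (2.10) and prr5l (-1.67), and of all genes 257 did in place of 2052. The member sesn3 was among the 25, at 1.45 log2 units, and was chosen with its levels known. With the block sesn3 was at 1.44 and did not pass (limma adjusted p = 0.110). Higher F2 than F1 effects were those of castor2 (1.86), grb10 (1.74), wdr59 (1.65), stk11 (1.63), hsp90aa1.1 (1.52), pdcd4 (1.31), zmat3 (1.24), prkaa1 (1.04), tsc1 (0.98), eif4ebp2 (0.98), mlst8 (0.76) and cab39l (0.70). Lower ones were those of prr5l (-2.09), klf15 (-1.80), ccng1 (-1.75), ctsd (-1.47), rheb (-1.45) and ppp1r15b (-1.39). The same held for slc3a2 (-1.37), lamtor5 (-1.33), ccng2 (-1.0), nfe2l2 (-0.91), c9orf72 (-0.83) and atp6v0d1 (-0.67). For klf15 both F1 groups were near the floor, at a mean of 0.29 scaled FPKM, where log2(value + 1) hides most change. Its difference between generations is thus not read as one between mixture effects. In F1 ccng2 was also low, at 0.745 ± 0.364 scaled FPKM in mixture and 1.21 ± 0.618 in control livers. Its log2 fold change was -0.32 in F1 and -1.32 in F2 here. In the authors' deposited table, without an added 1, it was -0.88 in F1 and -1.52 in F2. The size of the ccng2 difference thus depends on the scale used.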

How the results depend on the processing

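Of 460 member fold changes over all alternatives, 456 moved by less than 1 SD between libraries. The other 4 came from the replicate block, which in F1 uses only the pairs numbered 1 and 4: flcn at -0.75 in F1 and 0.27 for the F2 minus F1 effect, and sesn1 at 0.12 and -0.30. That of fnip2 in F1 was -0.64 with the block. Genes called in F1 numbered 4 without a filter, 3 unscaled, 1 after quantile normalization, 1129 with array weights, 29 with the block, 2 with the length trend removed, 2459 without the 5 low-weight libraries and 0 to 24 with 1 library left out. Because those 5 were left out for differing from their groups, that count is too high by construction. A filter at a mean of 5 FPKM, with fewer genes tested, gave 1486 in F2, 1358 for F2 minus F1, 3146 between controls and 753 between mixture groups. For F2 minus F1 array weights gave 3864, the block 257 and leaving out the 5 libraries 4229, and between mixture groups array weights gave 784 and leaving out the 5 gave 517. With 1 library left out the counts were 1774 to 3299 in F2, 1382 to 2783 for F2 minus F1, 5222 to 5942 between controls and 778 to 1509 between mixture groups. F1 pathway genes numbered 5 higher and 7 lower with array weights, and 22 and 12 without the 5 libraries. F2 pathway genes called higher were 6 unscaled, 21 with the length trend removed and 7 to 18 with 1 library left out, and those called lower were 14 at the stricter filter, 39 without the 5 libraries and 16 to 34 with 1 left out. For fnip1 and fnip2 the correlation was 0.55 without the 2 farthest libraries, 0.54 with the length trend removed, 0.68 without the 5 libraries (adjusted p = 0.114, permutation) and 0.55 to 0.72 with 1 left out; for flcn and fnip2 it was 0.66 unscaled, 0.84 without the 5 libraries and 0.41 to 0.63 with 1 left out. The cause of these shifts was not tested. Beyond the genes named with it, the block changed no call of a named gene in F2. F2 calls also ended with each generation alone for cdkn1b, eif4ebp2, foxo3, hsp90aa1.1, keap1 and mlst8 (adjusted p between 0.0532 and 0.0697), unscaled for cdkn1b, eif4ebp2, keap1, pdcd4 and prr5 (0.0572 to 0.201), and without a filter for cdkn1b, eif4ebp2 and rheb (0.0551 to 0.0566). Promoter motifs and protein identity were not run, since no sequence was used here.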
